A study of Mus musculus with 8 samples.

Results

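Complement was examined in epididymal white adipose tissue through 9 mouse genes chosen by name, with earlier results of these data known. They were *C1qa*, *C1qb* and *C1qc*, *C4b*, *C3*, *Cfp*, *C6*, *C3ar1* and *C5ar1*. Each gene was read from the brightest probe set annotated to that gene alone. This gave values for 7 of the 9 genes, among 18820 genes measured in all. *C3* and *C4b* were not analysed here, since the probe set that names *C4b* also names *C4a*, and no probe set is named here for *C3*. The RNA came from 4 *Sucnr1*-/- and 4 WT mice, with 1 Affymetrix array of the whole-transcript type for each. The *Sucnr1*-/- mice lacked, in every cell, most of the coding sequence of the succinate receptor SUCNR1, which had been exchanged for a lacZ/neo cassette. All mice were male offspring of intercrossed heterozygotes on a C57BL/6 background. All had received a low-fat diet (LFD) for 16 weeks, begun by the labels at 8 to 10 weeks of age, and were killed at 24 to 26 weeks. The comparison asks whether complement transcripts in fat differ when the succinate receptor is absent.

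Complement is a chain of plasma proteins started by C1q on immune complexes or dying cells, lectins on sugars, or slow turnover of C3. In the last route, properdin stabilises the enzyme that cleaves C3. All routes cleave C3, and later C5, releasing the anaphylatoxins C3a and C5a, which act on G protein-coupled receptors of myeloid cells and mast cells. The terminal proteins then assemble into a pore. Most plasma complement comes from the liver, whereas C1q and properdin come largely from myeloid cells, and adipose tissue makes several components itself.

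Values are log2 expression after robust multi-array averaging (RMA), so a difference of -1 is a halving of signal. The targeted gene was reported first as a check of the labels. *Sucnr1* read 6.02, 6.05, 5.41 and 7.11 in *Sucnr1*-/- mice 1 to 4, against 8.68, 8.97, 9.38 and 9.78 in WT mice 1 to 4. The difference was -3.05 (SE 0.36, limma, adjusted p = 0.321, exact permutation p = 0.0286, n = 4 each), although some of its probes may lie in sequence that the cassette left in place. Adipocyte markers were high in every mouse, with list means of 13.10 to 13.15 in *Sucnr1*-/- and 12.91 to 13.14 in WT fat, and epididymis markers were low, at 4.74 to 4.87 in *Sucnr1*-/- and 4.64 to 5.25 in WT fat. Hepatocyte markers varied from mouse to mouse, with means over the 4 of 5 measured from 6.47 to 8.97 in *Sucnr1*-/- and from 6.20 to 10.80 in WT fat. Albumin (*Alb*) read 11.62, 9.16, 9.67 and 9.93 in *Sucnr1*-/- mice and 8.38, 11.28, 9.33 and 12.85 in WT mice, so WT mouse 4 was highest, followed by *Sucnr1*-/- mouse 1 and WT mouse 2. Values without WT mouse 4 are therefore given beside the results.

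All 7 measured complement genes had a lower mean in *Sucnr1*-/- than in WT fat, and none passed the test over all genes. Of all 18820 genes 46.8% had a lower mean. Because the 7 genes were chosen with earlier results known, the shares over all genes are given as description only. At an unadjusted limma p under 0.05, 2 of the 7 genes were lower (*C3ar1* and *C6*), against 3.36% of all genes, and in 1 of the 7 (*C3ar1*) every *Sucnr1*-/- mouse lay below every WT mouse, against 1.87% of all genes. After Benjamini-Hochberg adjustment limma called 0% of all genes, and the smallest adjusted p among the 7 was 0.712. Before adjustment 632 genes were lower and 652 higher by limma, and 561 lower and 686 higher by the methods' t-test, which also called none after adjustment. The median difference of the 7 genes was -0.24, beside 0.01 over all genes. In whole tissue, fewer cells of a type and less RNA per cell cannot be told apart.

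**Figure D1:**
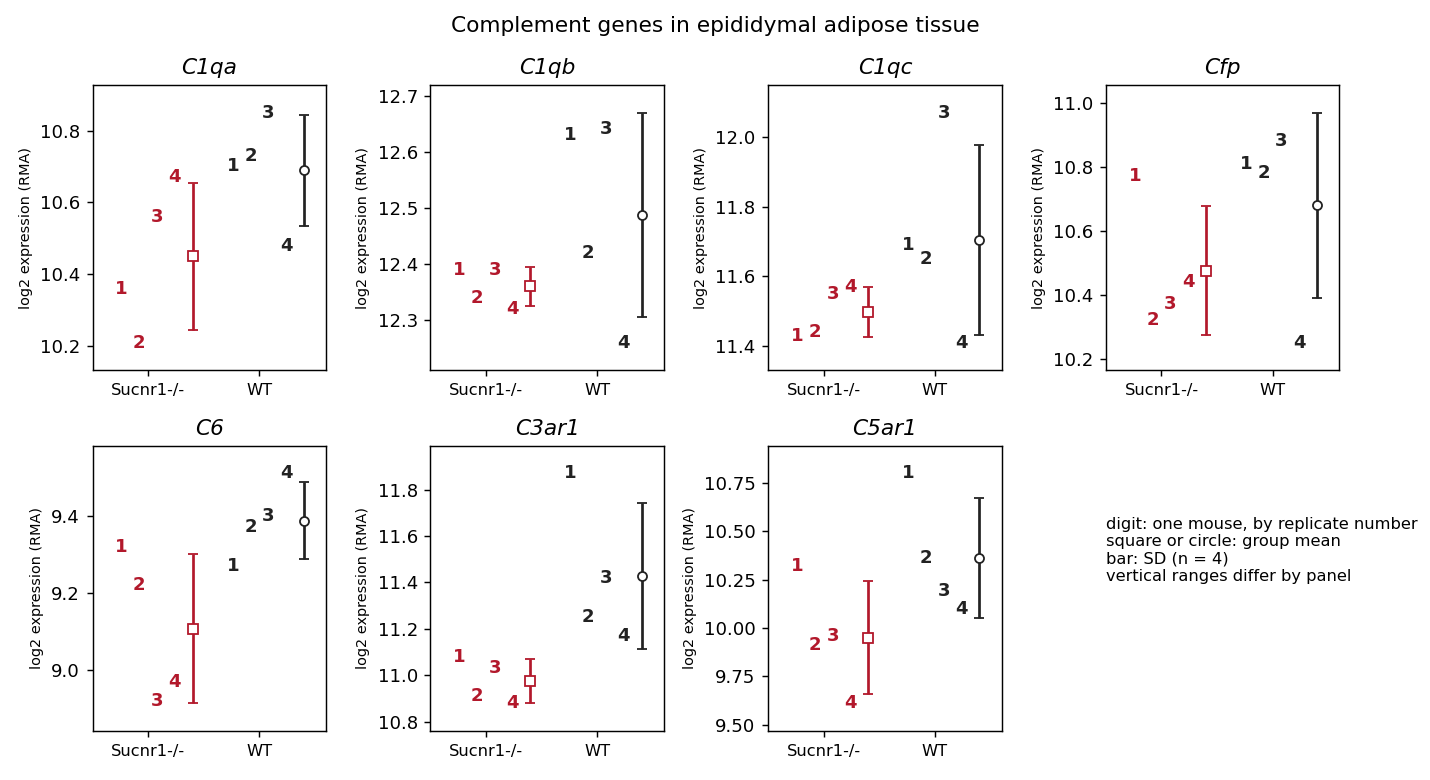
Log2 expression (RMA) of the 7 measured complement genes, with each digit 1 mouse by its replicate number, squares and circles the group means and bars the SD (n = 4 each). *C3ar1* separates the groups, with *Sucnr1*-/- mice between 10.88 and 11.08 and WT mice between 11.17 and 11.87, whereas WT mouse 4 lies below the lowest *Sucnr1*-/- mouse for *C1qb*, *C1qc* and *Cfp*.

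The initiating molecule C1q is built from A, B and C chains, each encoded by its own gene. *C1qa*, the A chain, read 10.36, 10.21, 10.56 and 10.67 in *Sucnr1*-/- mice 1 to 4, against 10.70, 10.73, 10.85 and 10.48 in WT mice 1 to 4. The groups overlapped, since WT mouse 4 lay below *Sucnr1*-/- mice 3 and 4. The means were 10.45 ± 0.21 in *Sucnr1*-/- and 10.69 ± 0.15 in WT fat (SD, n = 4 each), a difference of -0.24 (SE 0.12, 95% interval -0.51 to 0.03, limma, adjusted p = 0.72, exact permutation p = 0.143).

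*C1qb*, the B chain, was the steadiest of the chains in *Sucnr1*-/- fat. It read 12.39, 12.34, 12.39 and 12.32 in *Sucnr1*-/- mice, against 12.63, 12.42, 12.64 and 12.26 in WT mice. The *Sucnr1*-/- values kept within a narrow band, with WT mice 1, 2 and 3 above it and WT mouse 4 below it. The difference was -0.13 (SE 0.09, 95% interval -0.34 to 0.08, limma, adjusted p = 0.752, exact permutation p = 0.286), with SDs of 0.04 in *Sucnr1*-/- and 0.18 in WT fat. *C1qc*, the C chain, read 11.43, 11.44, 11.55 and 11.57 in *Sucnr1*-/- mice, against 11.69, 11.65, 12.07 and 11.41 in WT mice. The arrangement was that of *C1qb*, with WT mouse 3 highest and WT mouse 4 lowest of all 8. Its difference was -0.21 (SE 0.13, 95% interval -0.50 to 0.08, limma, adjusted p = 0.733, exact permutation p = 0.2).

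The differences of the C1q chains changed when single mice were left out. Without WT mouse 3 they were smaller, at -0.19 for *C1qa*, -0.08 for *C1qb* and -0.09 for *C1qc*, none passing at an unadjusted p under 0.05. Without WT mouse 4 they were -0.31 for *C1qa* (SE 0.12), -0.21 for *C1qb* (SE 0.08) and -0.31 for *C1qc* (SE 0.11), with unadjusted limma p-values of 0.0302, 0.0284 and 0.0254 and adjusted p-values of 0.578, 0.575 and 0.575. *C1qa* also moved with *Sucnr1*-/- mice left out, to -0.16 without mouse 2 (limma, unadjusted p = 0.197). Without *Sucnr1*-/- mouse 4 it was -0.31 (SE 0.12, limma, unadjusted p = 0.0273, adjusted p = 0.884). Without WT mouse 4, 6 of the 7 genes passed at an unadjusted p under 0.05, *C6* being the exception, and none after adjustment. In the same fit 3.81% of all genes were lower at that threshold. The hepatocyte markers of this mouse stood beside its low C1q values, and their part in the result was not tested.

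Over the 8 arrays, each group centred on its mean, the chains varied together, with r = 0.77 between *C1qc* and *C1qb*, 0.73 between *C1qc* and *C1qa* and 0.47 between *C1qb* and *C1qa*. These are descriptions over 8 arrays that share tissue and normalization. The 3 chain genes are neighbours on mouse chromosome 4, in the order *C1qb*, *C1qc* and *C1qa* between *Ephb2* and *Epha8*, which encode Eph receptors. Promoters of the members were read for the core bound by ETS factors of the PU.1 type (GAGGAA), PU.1 being a transcription factor of myeloid cells, and for the AP-1 site (TGACTCA). Both were searched on both strands in the 250 bases before and 50 after each start in RefSeq (GRCm38.p6), which gave 7 promoters, those of *C1qb*, *C1qc*, *C3*, *Cfp*, *C6*, *C3ar1* and *C5ar1*. The letters of the motifs cannot overlap one another. GAGGAA occurred in 28.3% of 32851 mouse promoters and in 3 of the 7, those of *C1qb*, *C1qc* and *Cfp*, and TGACTCA occurred in 5.2% of all promoters and in 1 of the 7, that of *C3ar1*. The promoters that hold a match are shown 5′ to 3′ on the strand of the gene, all on the minus strand of the assembly, with the matched letters in capitals. They are *C1qb* at chr4:136886151-136886450, *C1qc* at chr4:136892865-136893164, *Cfp* at chrX:20931506-20931805 and *C3ar1* at chr6:122856108-122856407.
C1qb: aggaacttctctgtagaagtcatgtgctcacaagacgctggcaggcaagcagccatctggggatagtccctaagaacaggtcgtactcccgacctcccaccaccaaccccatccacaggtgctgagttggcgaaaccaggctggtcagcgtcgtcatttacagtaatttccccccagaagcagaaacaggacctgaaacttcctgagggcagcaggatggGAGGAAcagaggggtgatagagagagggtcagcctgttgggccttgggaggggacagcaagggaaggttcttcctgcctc
C1qc: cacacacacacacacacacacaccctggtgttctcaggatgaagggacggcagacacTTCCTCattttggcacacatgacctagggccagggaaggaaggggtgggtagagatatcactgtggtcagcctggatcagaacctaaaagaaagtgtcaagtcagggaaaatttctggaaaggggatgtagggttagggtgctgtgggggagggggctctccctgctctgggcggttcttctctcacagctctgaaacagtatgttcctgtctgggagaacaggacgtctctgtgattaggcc
Cfp: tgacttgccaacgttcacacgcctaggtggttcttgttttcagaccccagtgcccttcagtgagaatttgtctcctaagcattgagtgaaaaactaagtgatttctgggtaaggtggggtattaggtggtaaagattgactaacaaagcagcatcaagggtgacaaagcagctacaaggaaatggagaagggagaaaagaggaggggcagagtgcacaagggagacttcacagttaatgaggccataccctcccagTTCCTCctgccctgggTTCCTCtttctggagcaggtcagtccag
C3ar1: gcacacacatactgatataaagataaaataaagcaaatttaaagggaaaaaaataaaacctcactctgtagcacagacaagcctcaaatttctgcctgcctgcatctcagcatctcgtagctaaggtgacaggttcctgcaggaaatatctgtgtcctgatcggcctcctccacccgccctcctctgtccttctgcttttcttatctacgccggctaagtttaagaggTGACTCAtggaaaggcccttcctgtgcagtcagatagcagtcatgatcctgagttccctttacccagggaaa
The match began 30 bases before the start in *C1qb*. In *C1qc* it began 193 bases before the start and stood on the opposite strand, so that it reads TTCCTC as shown. A match of letters is a description and not evidence of binding.

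The rest of the initiation machinery was counted in the same way. Of 14 other genes of the classical and lectin routes 12 were measured. Of these, 9 had a lower and 3 a higher mean in *Sucnr1*-/- fat, while 46.8% of all genes had a lower mean. None of the 12 passed at an unadjusted p under 0.05, where 3.36% of all genes were lower. The median difference of the 12 was -0.06. The smallest unadjusted p belonged to *Fcna*, which encodes ficolin A, a lectin of macrophages, at -0.43 (SE 0.20, limma, adjusted p = 0.719). It read 9.30, 9.16, 9.77 and 9.64 in *Sucnr1*-/- mice and 10.12, 10.24, 9.75 and 9.46 in WT mice, so WT mice 1 and 2 were highest and the groups overlapped. The difference of *Fcna* without WT mouse 4 was -0.57 (SE 0.18, limma, unadjusted p = 0.0127, adjusted p = 0.574). *C4a*, a copy of the component C4, was next at -0.28 (SE 0.18), or -0.17 without WT mouse 4, and its value is uncertain because *C4a* and *C4b* are nearly identical in sequence.

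Properdin, encoded by *Cfp* on the X chromosome, stabilises the alternative pathway convertase. *Cfp* read 10.77, 10.32, 10.37 and 10.44 in *Sucnr1*-/- mice, against 10.81, 10.78, 10.88 and 10.25 in WT mice. The genotypes did not separate, since *Sucnr1*-/- mouse 1 lay with WT mice 1, 2 and 3, and WT mouse 4 was the lowest of all. The means were 10.48 ± 0.20 in *Sucnr1*-/- and 10.68 ± 0.29 in WT fat (SD, n = 4 each), a difference of -0.20 (SE 0.15, 95% interval -0.56 to 0.15, limma, adjusted p = 0.762, exact permutation p = 0.371). Without WT mouse 4 the difference was -0.35 (SE 0.11, unadjusted p = 0.0164, limma, adjusted p = 0.574). *Cfp* varied with *C1qb* over the 8 group-centred arrays (r = 0.76). In its promoter, shown above, the matches lay 6 and 22 bases past the start, on the opposite strand. The other measured gene of this route, *Cfb*, which encodes the protease factor B, differed by -0.05 (SE 0.13) and by 0.02 without WT mouse 4.

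*C6*, which encodes a protein of the pore, differed between the genotypes at an unadjusted p under 0.05. It read 9.32, 9.22, 8.92 and 8.97 in *Sucnr1*-/- mice, against 9.27, 9.37, 9.40 and 9.51 in WT mice. Only *Sucnr1*-/- mouse 1 reached the WT range, where it lay above WT mouse 1. The means were 9.10 ± 0.19 in *Sucnr1*-/- and 9.39 ± 0.10 in WT fat (SD, n = 4 each), and the difference was -0.28, a ratio of 0.82 (SE 0.10, 95% interval -0.52 to -0.05, limma, unadjusted p = 0.023, adjusted p = 0.712, exact permutation p = 0.0571). Leaving out WT mouse 4, which read highest, gave -0.24 (SE 0.11, limma, unadjusted p = 0.0619, adjusted p = 0.61). The unadjusted p was also over 0.05 without *Sucnr1*-/- mouse 3, at -0.22, and without *Sucnr1*-/- mouse 4, at -0.24. Over the 8 group-centred arrays *C6* ran against *C1qa* (r = -0.73), and its r to *Cfp* was 0.00.

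The other terminal genes had their highest values in WT mouse 4, the mouse with the highest hepatocyte markers. Of 6 listed 5 were measured, 4 with a lower mean in *Sucnr1*-/- fat, against 46.8% of all genes, with a median of -0.46. All 5 were highest in WT mouse 4, as were 13.3% of all genes. *C8b* and *C8a*, which encode chains of C8, had the smallest p-values, at -0.46 (SE 0.30) and -0.38 (SE 0.30), neither passing, and without WT mouse 4 they were at -0.14 (SE 0.14) and -0.04 (SE 0.13). *C8b* read 5.05, 4.95, 4.71 and 5.16 in *Sucnr1*-/- mice, against 5.07, 5.36, 4.88 and 6.41 in WT mice. Named after their values were seen, *C9*, the pore-forming unit, read 4.58, 4.30, 4.41 and 4.73 in *Sucnr1*-/- mice, against 4.30, 4.88, 4.29 and 6.69 in WT mice, and *Hc*, the mouse gene for C5, read 5.52, 4.77, 4.96 and 4.75 in *Sucnr1*-/- mice, against 4.60, 5.18, 4.69 and 7.50 in WT mice. Their differences of -0.54 (SE 0.48) and -0.50 (SE 0.59) became 0.01 and 0.17 without WT mouse 4. *C6* was also highest in WT mouse 4, at 9.51. Its WT values without mouse 4 ran from 9.27 to 9.40. Among *Sucnr1*-/- mice, mouse 1 was highest for *C6*, at 9.32, and for the mean of the hepatocyte markers, at 8.97. *Sucnr1*-/- mouse 2, lowest for those markers at 6.47, was next for *C6*, at 9.22. The part of hepatocyte transcripts in the values of *C6* was not tested.

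**Figure D2:**
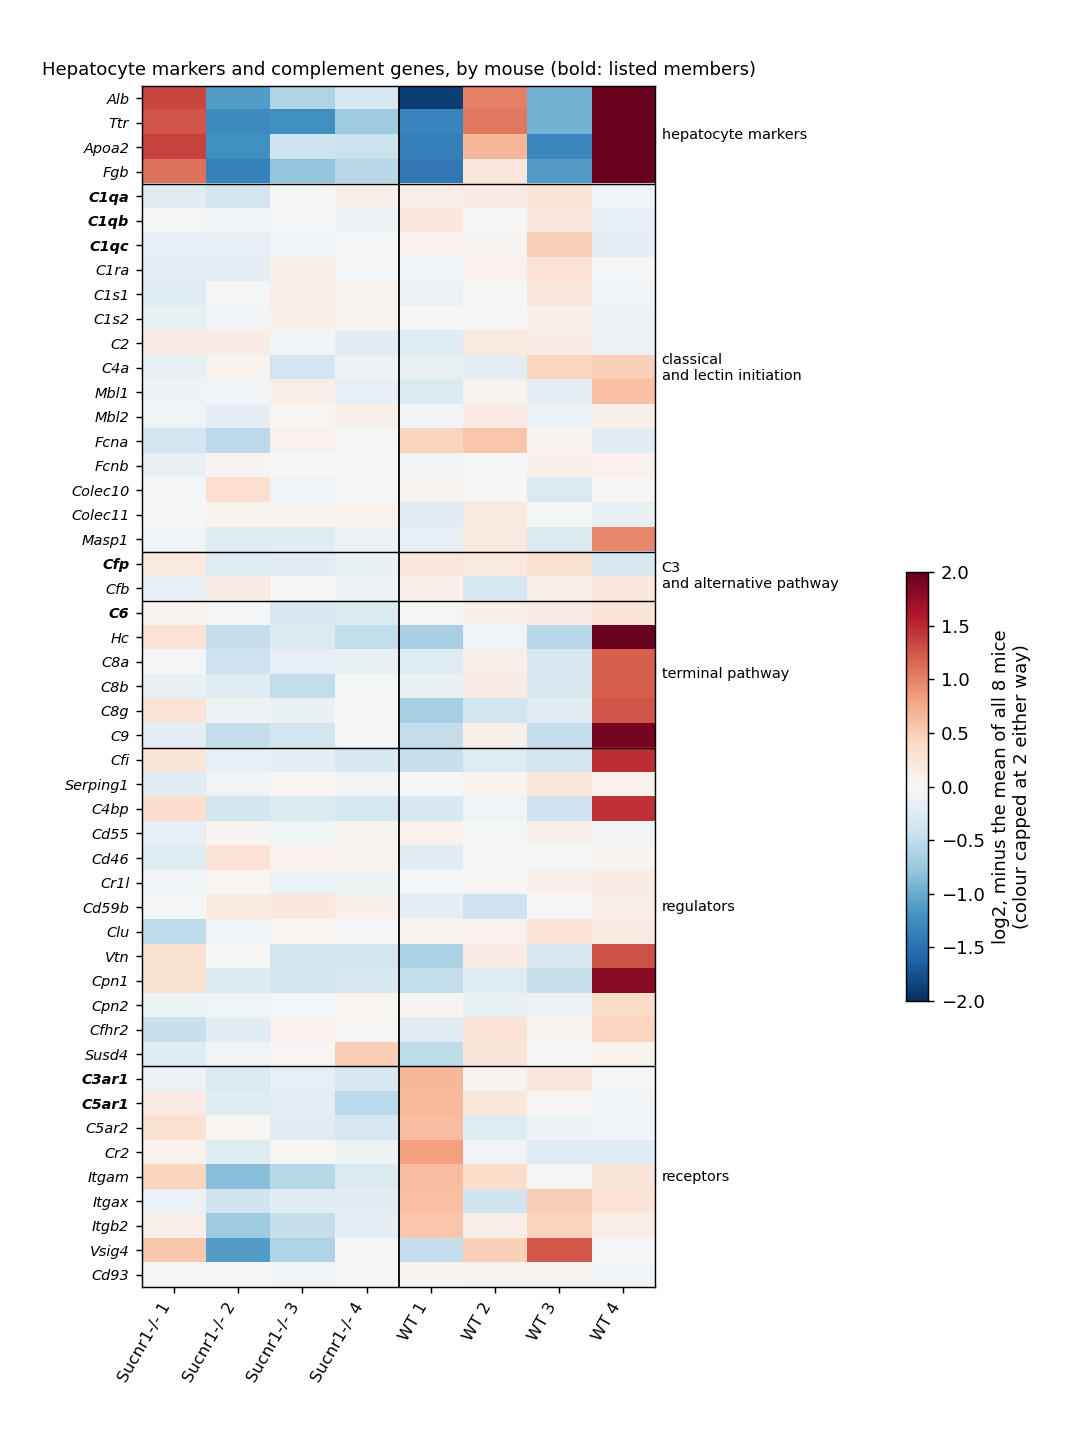
Log2 expression of hepatocyte markers and of all 45 measured complement genes (rows, by role, members in bold) in each mouse (columns), as the difference from the mean of the 8 mice, with colour capped at 2 in either direction. WT mouse 4 is highest for the hepatocyte markers, for *C6* and for the 5 other terminal genes, and WT mouse 1 is highest for *C3ar1* and *C5ar1*.

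*C3ar1* encodes the receptor for C3a and was the one complement gene of the 7 whose groups did not overlap. It read 11.08, 10.91, 11.03 and 10.88 in *Sucnr1*-/- mice, against 11.87, 11.25, 11.42 and 11.17 in WT mice. *Sucnr1*-/- mice lay close together and WT mice were spread, WT mouse 1 being highest. The means were 10.97 ± 0.10 in *Sucnr1*-/- and 11.43 ± 0.31 in WT fat (SD, n = 4 each), a difference of -0.45, which is a ratio of 0.73 (SE 0.14, 95% interval -0.78 to -0.13, limma, unadjusted p = 0.012, adjusted p = 0.712). The exact permutation p was 0.0286, the smallest that 4 mice against 4 allow. Without WT mouse 1 the difference was -0.31 (SE 0.09, limma, unadjusted p = 0.00719, adjusted p = 0.852), and without WT mouse 4 it was -0.54 (SE 0.14). It stayed at an unadjusted p under 0.05 in 18 of 18 alternatives, with p between 0.00355 and 0.0329. These alternatives refit the same mice or some of them, so they are not independent of one another. In the promoter of *C3ar1* the AP-1 letters began 22 bases before the start.

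*C5ar1*, which encodes the main receptor for C5a, read 10.32, 9.91, 9.96 and 9.61 in *Sucnr1*-/- mice, against 10.80, 10.36, 10.19 and 10.10 in WT mice. *Sucnr1*-/- mouse 1 lay among the WT mice and the others below all of them. The means were 9.95 ± 0.29 in *Sucnr1*-/- and 10.36 ± 0.31 in WT fat (SD, n = 4 each), a difference of -0.41, a ratio of 0.75 (SE 0.18, 95% interval -0.83 to 0.01, limma, unadjusted p = 0.0541, adjusted p = 0.719, exact permutation p = 0.0857). Without *Sucnr1*-/- mouse 1 the difference was -0.53 (SE 0.17, limma, unadjusted p = 0.0161, adjusted p = 0.547). Leaving out WT mouse 4 gave -0.50 (SE 0.19, limma, unadjusted p = 0.0339, adjusted p = 0.581). The difference was smaller without WT mouse 1, at -0.26 (SE 0.16, limma, unadjusted p = 0.132). Without *Sucnr1*-/- mouse 4 it was -0.30 (SE 0.18, limma, unadjusted p = 0.144). By the methods' t-test the unadjusted p was 0.103. The anaphylatoxin receptors varied together over the 8 group-centred arrays (r = 0.81), and in both the highest value was that of WT mouse 1 and the lowest that of *Sucnr1*-/- mouse 4. Between *C5ar1* and *C1qa* r was -0.19.

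Markers of other cells that carry these receptors were set beside them. Means of 7 neutrophil markers were 7.86, 5.36, 5.85 and 5.47 in *Sucnr1*-/- mice, against 6.92, 5.61, 5.38 and 6.01 in WT mice, with overlap and none of the 7 passing, and the *Sucnr1*-/- mouse highest for *C5ar1* was also highest for these. Means of 6 mast cell markers lay between 6.44 and 6.65 in *Sucnr1*-/- mice and between 6.86 and 7.21 in WT mice. At an unadjusted p under 0.05, 4 of the 6 were lower, against 3.36% of all genes, and none after adjustment. Means of 12 immediate early genes, which respond to handling of tissue, ran from 7.93 to 9.07 in *Sucnr1*-/- mice and from 8.25 to 9.35 in WT mice, with mouse 1 highest in both genotypes. The part of these lists in the receptor differences was not tested. Without mouse 1 of both genotypes, 3 of the 7 complement genes passed at an unadjusted p under 0.05, namely *C6*, *C3ar1* and *C5ar1*, as did 4.14% of all genes in the direction of lower values.

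Other complement receptors include integrins, phagocyte receptors and a further C5a receptor. All 7 had a lower mean in *Sucnr1*-/- fat, with 3 past the unadjusted threshold of 0.05 and none past the adjusted one, and with a median of -0.48. Of all genes 46.8% had a lower mean and 3.36% were lower at that unadjusted threshold. *Itgb2*, the beta chain of complement receptors 3 and 4, read 10.09, 9.28, 9.51 and 9.81 in *Sucnr1*-/- mice, against 10.54, 10.13, 10.43 and 10.13 in WT mice. Its difference was -0.64 (SE 0.18, limma, unadjusted p = 0.00651, adjusted p = 0.712). Every *Sucnr1*-/- mouse lay below every WT mouse, as for 1.87% of all genes. *Itgax* and *Itgam*, their alpha chains, differed by -0.48 (SE 0.20) and -0.63 (SE 0.26), and both overlapped. Without WT mouse 4 the unadjusted p was over 0.05 for *Itgax* and *Itgam* but not for *Itgb2*. For both alpha chains it was also over 0.05 by the methods' t-test, and without WT mouse 1 or *Sucnr1*-/- mouse 2, 3 or 4. Leaving out WT mouse 2 did the same for *Itgam*, and leaving out WT mouse 3 for *Itgax*. *Vsig4*, a receptor of resident macrophages for C3 fragments, differed by -0.60 (SE 0.43), which did not pass. *C5ar2*, the second receptor for C5a, differed by -0.11 (SE 0.21). Whether this was less than for *C5ar1* was not tested.

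Regulators, which restrain the cascade on host cells and in plasma, were represented by 13 of 17 listed genes, 10 with a lower mean in *Sucnr1*-/- fat, 1 at an unadjusted p under 0.05, and 7 highest in WT mouse 4. *Clu*, or clusterin, an inhibitor of the pore, read 9.91, 10.35, 10.45 and 10.39 in *Sucnr1*-/- mice, against 10.47, 10.50, 10.67 and 10.60 in WT mice. Every *Sucnr1*-/- mouse lay below every WT mouse, as for 1.87% of all genes, and *Sucnr1*-/- mouse 1 lay farthest below (-0.29, SE 0.12, limma, unadjusted p = 0.041, adjusted p = 0.715). The unadjusted p of *Clu* was over 0.05 by the methods' t-test, without *Sucnr1*-/- mouse 1, where the difference was -0.17, without *Sucnr1*-/- mouse 2, and without WT mouse 2, 3 or 4, where it ran from -0.31 to -0.25. The same held after quantile normalization, and without WT mouse 4 and *Sucnr1*-/- mouse 1 together, where the difference was -0.15. *Serping1*, the C1 inhibitor, differed by -0.17 (SE 0.08) and did not pass, with -0.18 (SE 0.09) without WT mouse 4. Counted over all roles, 31 of 38 other complement genes had a lower mean and 7 a higher one, with a median of -0.13, while 46.8% of all genes had a lower mean. At an unadjusted p under 0.05, 4 of the lower ones passed, against 3.36% of all genes. That count was 1 without *Sucnr1*-/- mouse 2 and by the methods' t-test, and 2 without *Sucnr1*-/- mouse 4 or without WT mouse 2, 3 or 4. Without WT mouse 4 the count with a lower mean was 23 and the median -0.05, beside a median of 0.01 over all genes. The share of all genes with a lower mean was not counted in that fit. There the median of the 7 members was -0.31. WT mouse 4 was the lowest WT mouse for every member but *C6*, so leaving it out made those differences more negative.

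**Figure D3:**
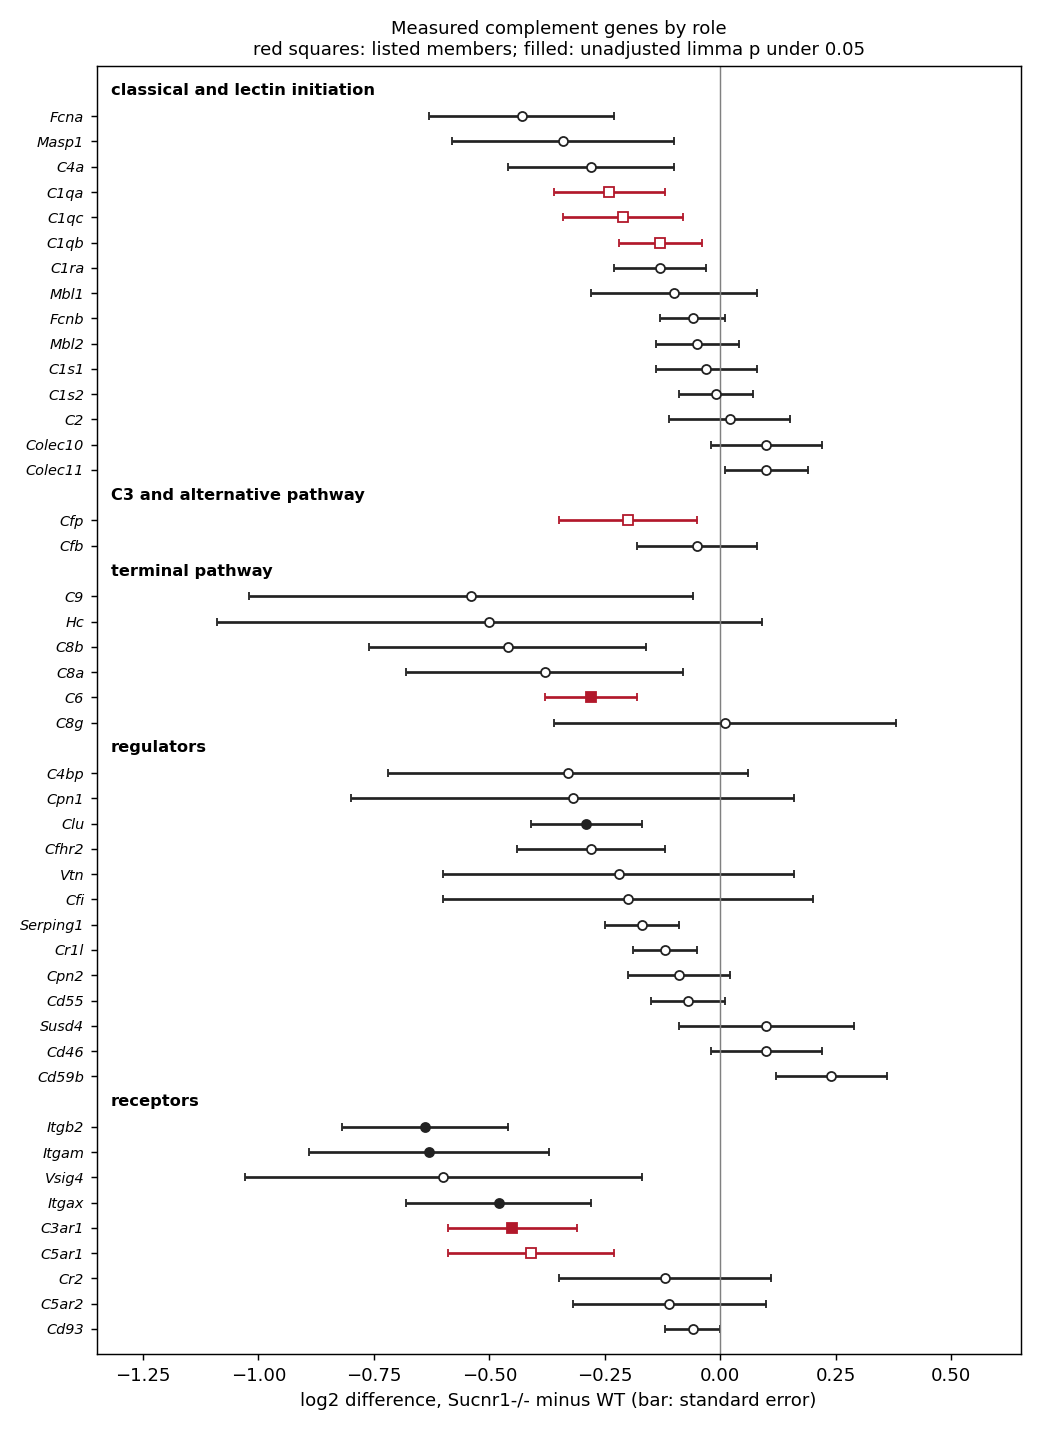
Log2 difference, *Sucnr1*-/- minus WT (horizontal axis, bar: standard error), for the 45 measured complement genes by role, with members as red squares and unadjusted limma p under 0.05 as filled marks. All 9 receptor genes lie left of 0, from -0.64 for *Itgb2* to -0.06 for *Cd93*, and no mark in any role is filled to the right of 0.

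Because C1q, properdin and the anaphylatoxin receptors are expressed by macrophages, their values were set beside macrophage markers. Of 14 markers measured, 13 had a lower mean in *Sucnr1*-/- fat and 3 passed at an unadjusted p under 0.05 (*Adgre1* at -0.50, *Cd68* at -0.49 and *Mrc1* at -0.42), none after adjustment, with a median of -0.32. Of all genes 46.8% had a lower mean and 3.36% were lower at that unadjusted threshold. The mean of the list was 9.82, 9.57, 9.71 and 9.63 in *Sucnr1*-/- mice, against 10.22, 9.87, 10.13 and 9.78 in WT mice. WT mouse 4 was thus the lowest WT mouse for macrophage markers, just below *Sucnr1*-/- mouse 1. It was also the lowest WT mouse for *C1qa*, *C1qb*, *C1qc*, *Cfp*, *C3ar1* and *C5ar1*, and the highest for *C6*. Within this list only *Cd163* had a higher mean, by 0.05. *Folr2*, *Cd209f* and *Timd4* differed by -0.05, -0.08 and -0.30, and none of them passed. The list was not divided into resident and other macrophages, so a difference between them was not tested.

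After the macrophage mean of the same mouse was subtracted, the differences of the C1q chains turned positive, at 0.08 for *C1qa*, 0.19 for *C1qb* and 0.11 for *C1qc*. Relative to the macrophage mean *C1qb* read 2.57, 2.77, 2.68 and 2.68 in *Sucnr1*-/- mice, against 2.42, 2.55, 2.50 and 2.48 in WT mice. Every *Sucnr1*-/- mouse lay above every WT mouse, as did 18.5% of all genes after the same step, and none of the other 6 members separated in this way. *Cfp* and *C6* differed by 0.12 and 0.04 on this relative scale. *C3ar1* and *C5ar1* kept negative differences, of -0.13 and -0.09. *C3ar1* minus the macrophage mean read 1.26, 1.34, 1.32 and 1.25 in *Sucnr1*-/- mice, against 1.65, 1.38, 1.28 and 1.39 in WT mice, so WT mouse 3 lay inside the *Sucnr1*-/- range. For the C1q chains, *Cfp* and *C6* the difference between genotypes was thus smaller than that of the mean macrophage marker, and for *C3ar1* and *C5ar1* larger, all on the log2 scale and without a test.

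**Figure D4:**
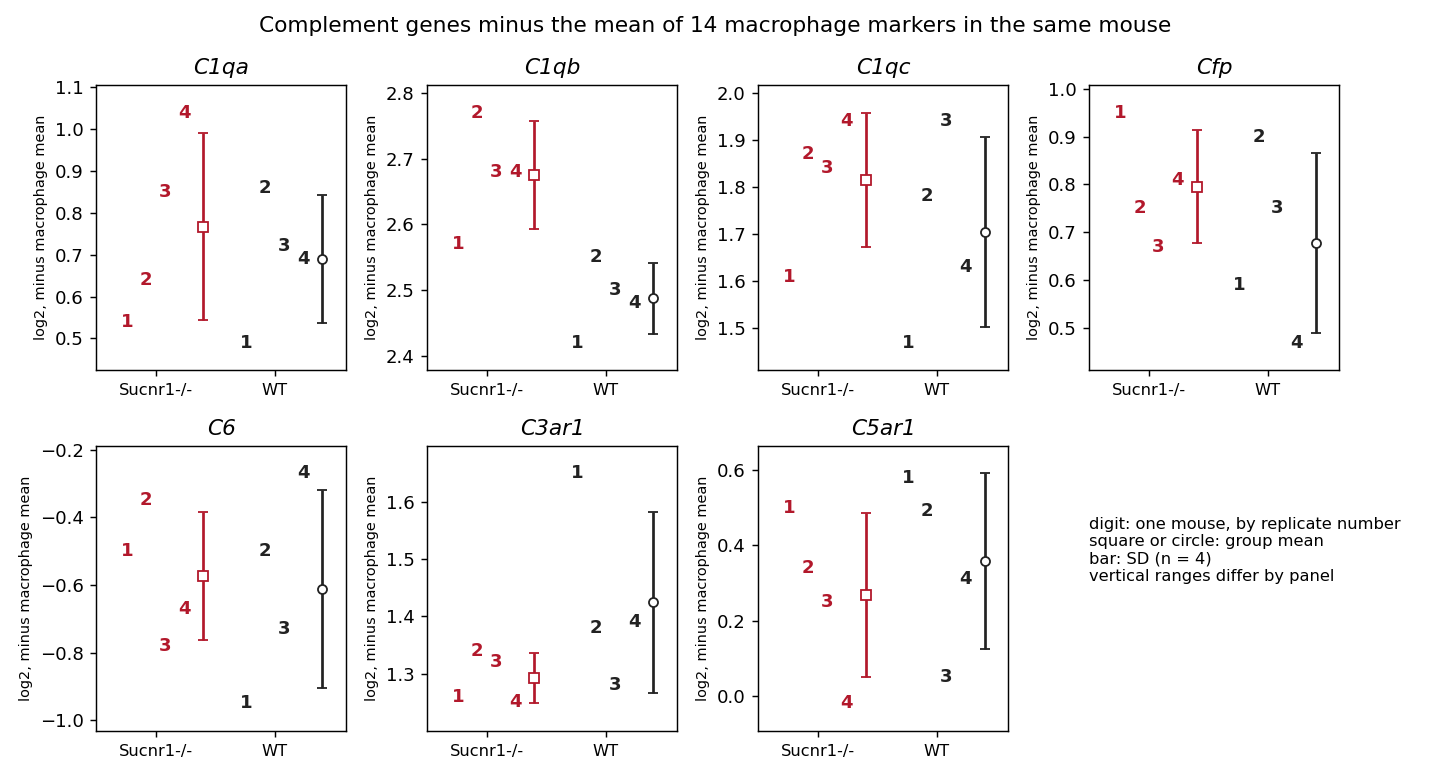
Log2 expression of the 7 complement genes minus the mean of 14 macrophage markers in the same mouse, with each digit 1 mouse, squares and circles the group means and bars the SD (n = 4 each). *C1qb* lies between 2.57 and 2.77 in *Sucnr1*-/- mice and between 2.42 and 2.55 in WT mice, and *C3ar1* is highest in WT mouse 1, at 1.65.

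Among 18062 genes compared, those most like the mean of the C1q chains over the 8 group-centred arrays were *Tas2r124*, a bitter taste receptor gene (r = 0.983), *Olfr25*, an olfactory receptor gene (r = 0.970), *Rps27*, a ribosomal protein gene (r = 0.968), *Npy4r* (r = 0.963) and *Disp1* (r = 0.959). *Tas2r124*, *Olfr25* and *Npy4r* had mean values of 3.44, 4.27 and 4.49 on the log2 scale, with within-group SDs of 0.09, 0.14 and 0.07. Those most like *C3ar1* were *Trgv1*, a T cell receptor segment (r = 0.997), *Tmem9b* (r = 0.993), *Tnfrsf4*, the costimulatory receptor OX40 (r = 0.991), *H2-Eb2*, an MHC class II chain (r = 0.990), and *Cxcr5*, the homing receptor of follicular B cells (r = 0.984). The B cell list was highest in WT mouse 1, as *C3ar1* was, with means from 5.74 to 7.18 in *Sucnr1*-/- mice, against 8.56, 6.63, 7.63 and 6.38 in WT mice 1 to 4. With 8 arrays and this many genes, high values of r describe these arrays alone.

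Leaving out each mouse in turn kept all 7 differences below 0. *C3ar1* ran from -0.54 to -0.31, *C6* from -0.35 to -0.22 and *C5ar1* from -0.53 to -0.26. *C1qb* came closest to 0, at -0.08 without WT mouse 1 or WT mouse 3. The count at an unadjusted p under 0.05 was 1 without *Sucnr1*-/- mouse 3 (*C3ar1* alone, against 2.52% of all genes) and 6 without WT mouse 4.

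**Figure D5:**
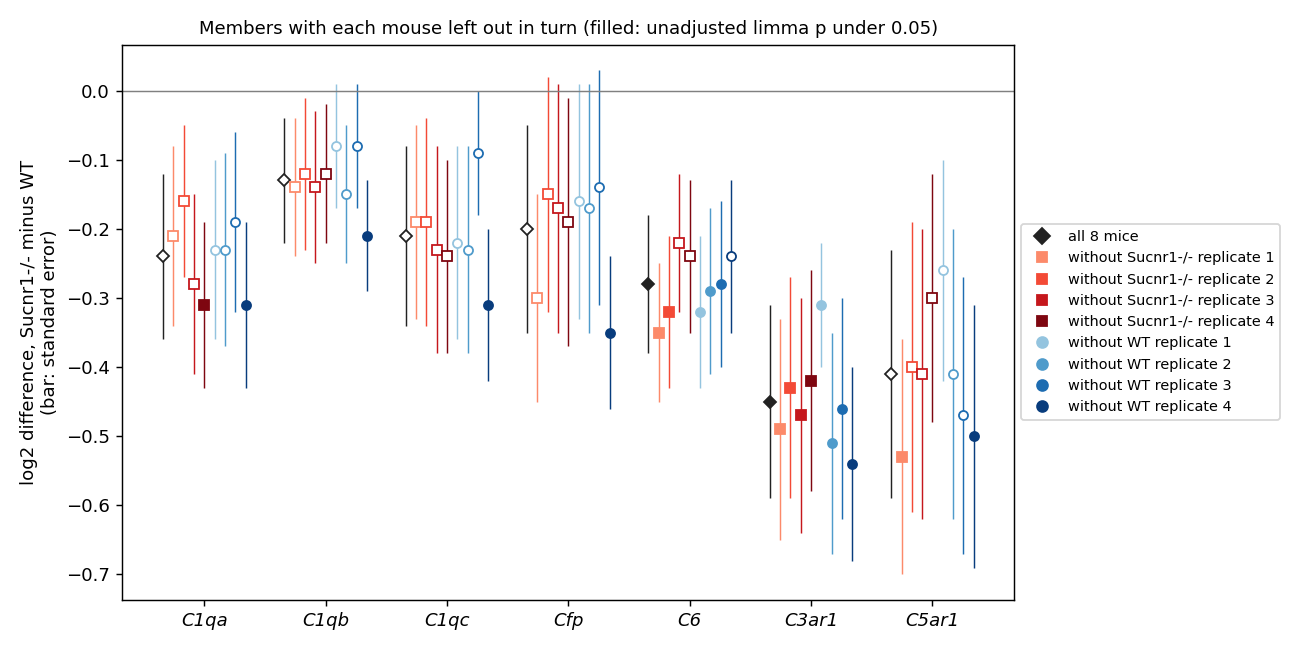
Log2 difference, *Sucnr1*-/- minus WT (vertical axis, bar: standard error), for the 7 complement genes with all 8 mice (diamonds) and with each *Sucnr1*-/- mouse (red squares) or WT mouse (blue circles) left out, filled where the unadjusted limma p was under 0.05. *C3ar1* is filled at each of its 9 marks, between -0.54 and -0.31, and *C1qb*, *C1qc* and *Cfp* are filled only without WT mouse 4.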

How the data were processed

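RNA of epididymal adipose tissue from 4 *Sucnr1*-/- and 4 WT mice was hybridised to Affymetrix Mouse Gene 1.1 ST arrays, 1 per mouse. The deposited table holds log2 values that the authors made with RMA (version and genome build not given in the sources used here), which removes differences in total signal between arrays and compresses low values. Of 35556 probe sets 21218 had exactly 1 symbol, 1881 had several and 12457 were unnamed, and 21185 matched RefSeq genes by Entrez ID. The brightest probe set stood for the 1386 genes with several. Array medians lay between 6.28 and 6.36 and array correlations between 0.981 and 0.993. No batch or scan date was used, and 4 arrays per group limit the precision.

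Groups were compared with limma 3.58.1 in R 4.3.3 (lmFit, eBayes, 2.66 prior degrees of freedom), with Benjamini-Hochberg adjustment over 18820 genes and no filter. P-values are two-sided. Single genes were also tested by two-sided exact permutation over the 70 ways to choose 4 of 8 mice. Members and lists were chosen with earlier results of these data known. The genes named were all members, the pair of smallest p among the other genes of each role, and the 5 genes most like the C1q mean and *C3ar1*. Other complement genes (*Itgam*, *Vsig4*, *C5ar2*, *C9*, *Hc*) were named after their values were seen. The procedure was tested on simulated data. Alternatives covered prior, test, filter, weights, normalization, block, probe sets and left-out mice. Those without WT mouse 4 and *Sucnr1*-/- mouse 1, or without mouse 1 of both genotypes, were chosen after seeing the data.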

Additional observations from a re-analysis of the deposited data

Results flagged for a closer look

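Groups of 4 mice were examined for single genes and for the mean of each marker list. Of 122 such groups, 8 held a mouse standing apart from the rest by Dixon's criterion for 4 values (gap over range above its 95% critical value), and chance alone marks about 1 group in 20. In 4 of the 8 the mouse was WT mouse 4. One was a member: *Cfp* in WT fat (ratio 0.832), where WT mouse 4 read 10.25 and the others 10.78 to 10.88. WT mouse 4 also stood apart for *Cfi*, the protease factor I, in WT fat (0.902, 5.59 against 3.66 to 3.85), for *Cpn1*, carboxypeptidase N, in WT fat (0.893, 6.51 against 4.20 to 4.44), and for *Cd93* in WT fat (0.842, 10.30 against 10.41 to 10.43). *Sucnr1*-/- mouse 1 stood apart for *C4bp* (0.871, 4.91 against 4.19 to 4.28) and *Cpn1* (0.849, 4.99 against 4.32 to 4.42) in *Sucnr1*-/- fat. The collectin gene *Colec10* was marked in both genotypes, with *Sucnr1*-/- mouse 2 high (0.927, 5.18 against 4.78 to 4.81) and WT mouse 3 low (0.855, 4.55 against 4.85 to 4.91).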

How the results depend on the processing

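Over 18 alternatives none of the 126 values of the 7 members changed direction, and the adjusted limma p-values lay between 0.304 and 0.928. Over all genes 0 passed after adjustment in each alternative. The members lower at an unadjusted p under 0.05, 2 with all mice, numbered 1 to 6 with a mouse left out and 5 without WT mouse 4 and *Sucnr1*-/- mouse 1. The other complement genes lower in this way, 4 with all mice, numbered 1 to 4 with a mouse left out and 1 by the methods' t-test. A filter that dropped the dimmest 40% of genes left fewer complement genes, 17 of them with a lower mean. Over all genes 632 were lower and 652 higher. Centring arrays on their medians gave 979 lower and 355 higher, the filter gave 369 higher, leaving out WT mouse 4 and *Sucnr1*-/- mouse 1 gave 973 lower, and single mice left out gave 368 to 885 lower. Signs turned for genes near 0 or made by hepatocytes. With a mouse left out *C9* ran from -0.79 to 0.01, *Hc* from -0.79 to 0.17, *Cfi* from -0.39 to 0.26 and *Cfb* from -0.17 to 0.02. Without WT mouse 4 and *Sucnr1*-/- mouse 1, *Cfi* was 0.14 and *Cfb* 0.07, and *Cfb* was 0.03 without mouse 1 of both genotypes. The positive values of *C9*, *Hc* and *Cfi* arose with WT mouse 4 left out, and the cause of the others was not tested. With the replicate number as a block 3 members (*C6*, *C3ar1* and *C5ar1*), 6 other complement genes and 1096 genes in all were lower, but same-numbered mice deviated together only in part (r = 0.454, 0.141, 0.106 and 0.0148, with 4 of 8 arrays closest to their own number), so the numbers were not taken to pair the mice.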
